A study of Rattus norvegicus with 180 samples.

Results

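The microRNAs (miRNAs) described here are rno-miR-7a, rno-miR-7b and rno-miR-375, the members of the miR-7 family and the single miR-375 of the rat, which are best known from hormone-producing tissue. They were taken by name from the 717 miRNAs of a custom rat array, and all 3 were present under 1 name each. Their level was followed over 55 organs of 3 male Sprague-Dawley rats, aged 10 weeks, that had been perfused with saline to remove blood. No treatment and no genotype beyond this is given, so that each group is 1 organ of the 3 perfused rats, which carry the numbers 4, 5 and 6. A second set of 3 rats of the same strain, sex and age was not perfused and gave liver, kidney, lung, heart atrium and heart interventricular septum. Every value below is an average over the cell types of the tissue taken. Per the study's methods the 6 intestinal segments, from duodenum to rectum, were sampled as scraped mucosa, and the cerebral regions were dissected by eye. Fewer cells of a type and less of a miRNA per cell cannot be told apart in such samples.

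A miRNA is a short RNA that guides an Argonaute protein to messenger RNAs, mainly by pairing of its seed, the bases 2 to 8, and lowers the output of those messengers. miR-7 is conserved from insects to mammals and is known from neuroendocrine cells. In pancreatic beta cells it restrains insulin release, and in the brain the circular RNA Cdr1as carries many binding sites for it. miR-375 was first cloned from insulin-producing cells, in which it represses myotrophin and exocytosis of insulin, and it is also known from pituitary cells and from mucosal epithelium.

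The mature sequences are shown because miR-7a and miR-7b are so alike that the seed cannot separate them. Capitals mark the seed. The sequences are those of RefSeq on build GRCr8, matched to the array names with the arm added (miR-7a-5p, miR-7b and miR-375-3p), and all 3 members were matched.
rno-miR-7a: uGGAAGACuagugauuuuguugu
rno-miR-7b: uGGAAGACuugugauuuuguugu
rno-miR-375: uUUGUUCGuucggcucgcguga
miR-7a and miR-7b share 22 of 23 bases and differ by A10U, counted from the 5′ end with the base of miR-7a first. Of the 693 mature names listed there, 2 hold the seed GGAAGAC, which are these, and miR-375 alone holds the seed UUGUUCG.

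The same mature miR-7a comes from a pair of loci, at chr1:142215818-142215840 and at chr17:6278710-6278732, both on the plus strand. The locus on chromosome 17 lies within Hnrnpk, which encodes an RNA-binding protein, and the locus on chromosome 1 lies within an uncharacterised long noncoding RNA. A probe for miR-7a cannot tell them apart, but the other arms of the hairpins differ and were probed as miR-7a-1* (chromosome 17) and miR-7a-2* (chromosome 1). Their sequences, as miR-7a-1-3p and miR-7a-2-3p of RefSeq, are shown because these arms alone separate the loci.
rno-miR-7a-1*: aCAACAAAucacagucugccau
rno-miR-7a-2*: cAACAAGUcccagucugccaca
miR-7b lies at chr9:1167464-1167486 on the plus strand, within the pseudogene Rpl35l3. miR-375 lies at chr9:83906591-83906612 on the minus strand, within the annotated span of Cryba2, a crystallin gene.

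Levels are given as the scaled signal of the array, which has no unit, with the rats in the order 4, 5 and 6. Arrays were brought to a common scale by the 75th percentile over the 37 miRNAs that were detected on all 180 arrays. Detection on an array means that the scanner software marked more than 50% of the spots used for a miRNA as well above background. Signals below 10.8, the floor, were raised to it ahead of the log2. Between 86 and 244 miRNAs were detected on an array, and pancreas had the fewest. For 8 arrays, among them that of pituitary gland of rat 5, the labels give 2 rat numbers, and the number in the title was used. Signals of different miRNAs depend on their probes and are not set against each other.

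miR-7a was the broadest of the 3 members, with detection on 131 arrays of perfused organs. It was detected on all 3 arrays of 35 organs, on some arrays of 17 organs and on no array of 3 organs, which were parotid gland, femoris muscle and skin. The lowest signal detected differs between arrays, at 20.3 to 50.1 in parotid gland against 4.90 to 11.4 in pituitary gland. Missing detection is therefore not a lower level. For miR-7a the mean log2 signal was 5.08 in parotid gland and 4.57 in lung, which was detected throughout. miR-375 was detected on 63 arrays, that is on all 3 arrays of 19 organs, and it was not detected in 31 organs. miR-7b was the narrowest, with 25 arrays and 4 organs detected throughout, and 44 organs without detection. The number of arrays limits the precision. In organs that were detected throughout, the median SD between rats was 0.21 log2 units for miR-7a, 0.27 for miR-7b and 0.24 for miR-375.

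**Figure D1:**
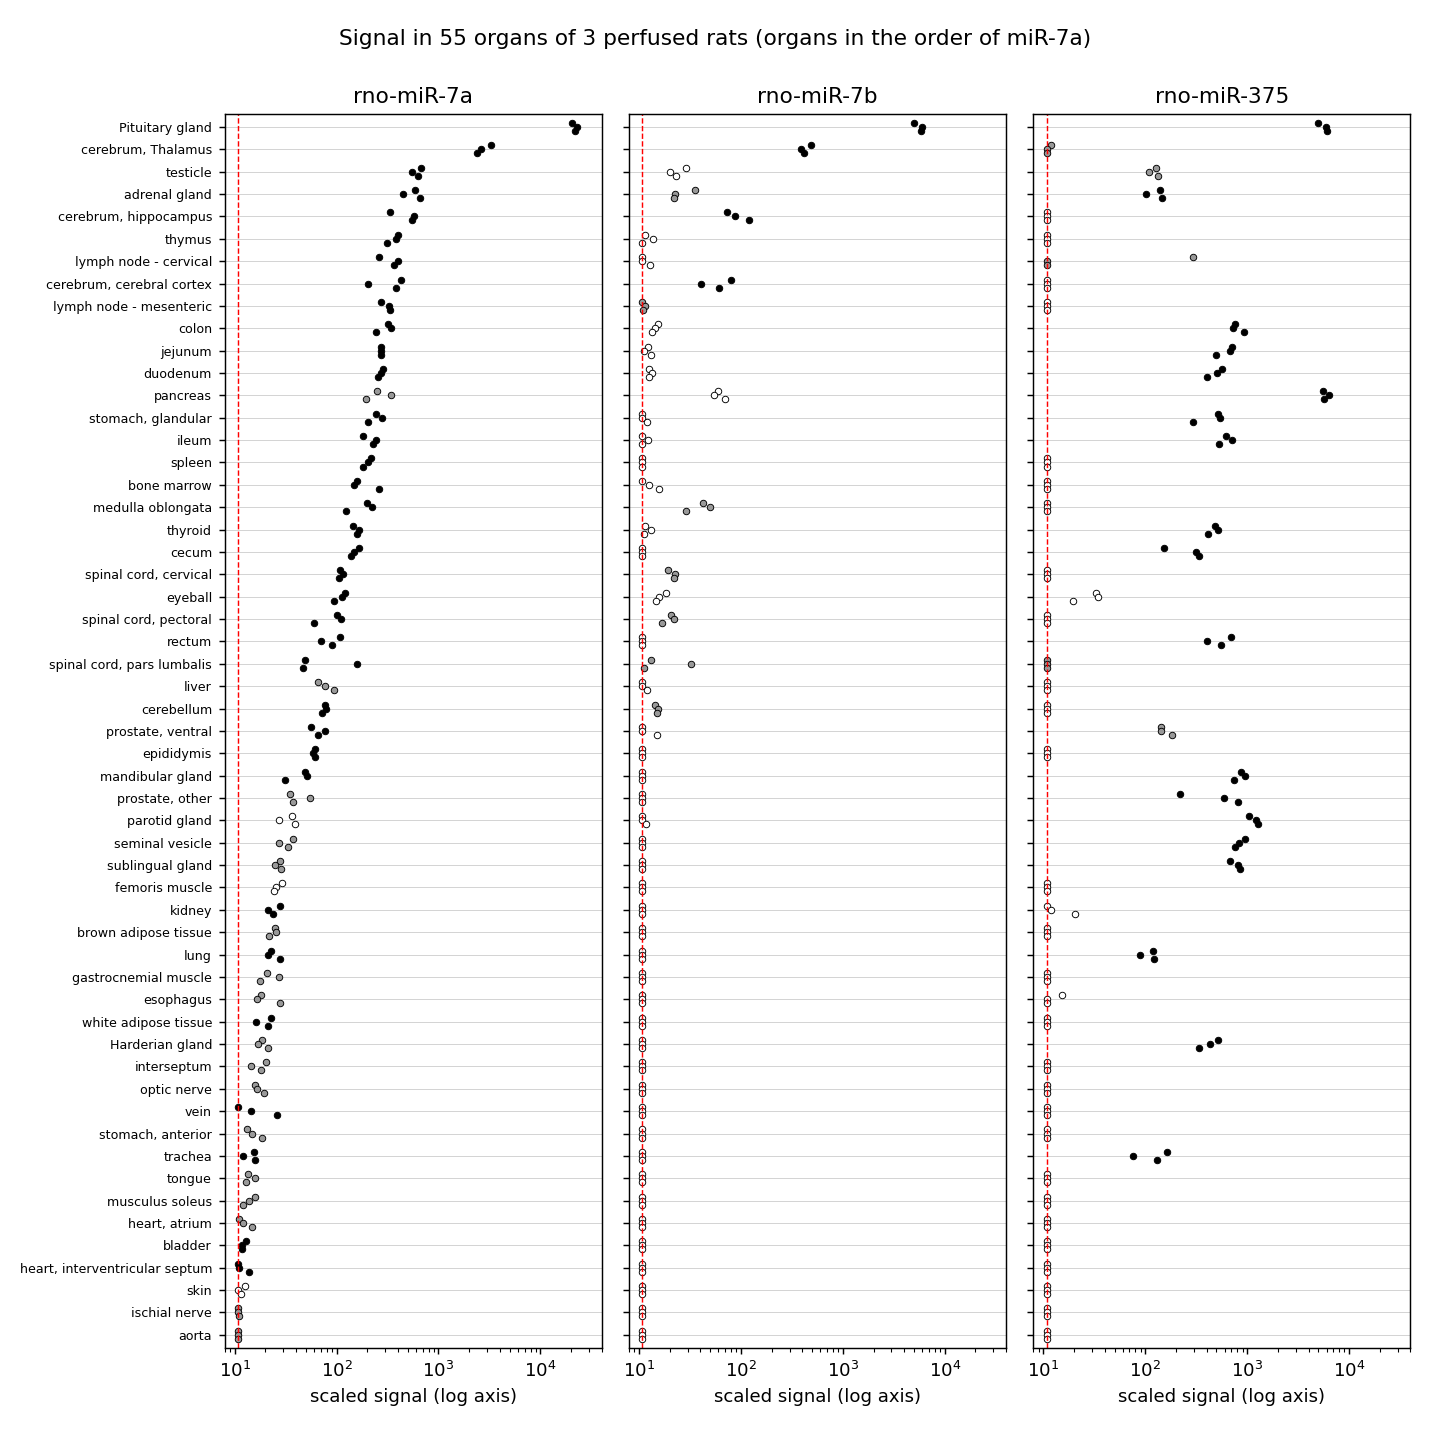
Scaled signal (log axis) of the 3 members in 55 organs, with 1 point per rat and organs in the order of the miR-7a mean. Filled points belong to organs detected on all 3 arrays, grey points to organs detected on 1 or 2 arrays and open points to organs not detected, and the dashed line is the floor of 10.8. Pituitary gland leads the first 2 panels, while in the panel of miR-375 it lies level with pancreas.

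In pituitary gland, which releases the hormones that control adrenal gland, thyroid and gonads, all 3 members stood at or near their highest level in the rat. miR-7a had signals of 20572, 22939 and 22009 in rats 4, 5 and 6, with a mean of 21840 ± 1193 (SD, n = 3). miR-7b had 4945, 5972 and 5827, with a mean of 5581 ± 556 (SD, n = 3). Signals of miR-375 were 4953, 5953 and 6070, with a mean of 5659 ± 614 (SD, n = 3). For miR-7a and miR-7b every pituitary array lay above every array of the other 54 organs, and for miR-375 above those of 53 organs, with pancreas as the exception.

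Pituitary gland exceeded the average of the remaining 54 organs by 8.40 ± 0.17 log2 units (SE) for miR-7a (limma's adjusted p = 6.11e-76), 8.58 ± 0.11 for miR-7b (1.52e-98) and 6.97 ± 0.26 for miR-375 (5.68e-50). Of the 345 miRNAs tested 35.4% passed as higher in pituitary gland, and the median difference over all of them was -0.11. Counted with their sign, as in the comparisons that follow, no difference of the 345 miRNAs was larger than that of miR-7b, 1 was larger than miR-7a and 2 were larger than miR-375, so that the members took the top of the list, under each of the 4 other scalings tried as well. Because 3, 44 and 31 of the other organs did not detect miR-7a, miR-7b and miR-375, these differences correspond to at least 336-fold, 304-fold and 112-fold. Such bounds set an organ that did not detect the miRNA at the lowest signal detected on its arrays. On single slides, which hold few other organs each, the difference ranged over 3 slides from 7.26 to 9.07 for miR-7a, from 7.42 to 8.62 for miR-7b and from 8.82 to 9.13 for miR-375.

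The pituitary arrays carried little signal of neighbouring nervous tissue. The 3 markers of nervous tissue (miR-124, miR-9 and miR-9*) summed to between 30.1 and 36.6 there, against 10525 to 10931 in thalamus. All 6 epithelial miRNAs (the miR-200 family with its array versions) were detected in pituitary gland, and they summed to between 8197 and 10033. Each passed as higher than in the other 54 organs, by 3.01 to 4.70 log2 units, and the 3 leukocyte markers passed as lower (-2.73 to -1.75). Of the markers of pancreatic acinar cells, miR-216a (0.83) and miR-217 (0.13) also passed as higher. Each was detected on 2 of 3 pituitary arrays, with means of 22.8 and 12.1. Their part in the levels of the members was not tested.

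In the brain, miR-7a and miR-7b were highest in thalamus, the relay between the senses and the cortex. Signals of miR-7a were 3306, 2586 and 2396 in thalamus, 331, 578 and 548 in hippocampus, and 429, 205 and 384 in cerebral cortex. The 3 thalamus arrays lay above all arrays of these 2 regions, which overlapped each other. Medulla oblongata had a mean of 181 ± 50.1 (SD, n = 3) and cerebellum of 76.1 ± 3.37 (SD, n = 3). miR-7b kept this order, with 491, 386 and 416 in thalamus, 73.2, 88.2 and 120.5 in hippocampus, and 79.1, 40.4 and 60.6 in cerebral cortex. In medulla oblongata and in cerebellum miR-7b was detected on 2 of 3 arrays, with means of 40.6 and 14.9.

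Against the mean of cerebral cortex, hippocampus, cerebellum and medulla oblongata, thalamus was higher by 3.69 ± 0.19 log2 units (SE) for miR-7a (limma's adjusted p = 5.60e-36) and by 3.35 ± 0.12 for miR-7b (1.70e-50). These are 12.9-fold and 10.2-fold. In this comparison 32.2% of the 345 miRNAs were called higher in thalamus, none had a larger difference than miR-7a and 1 had a larger difference than miR-7b. Of the 3 nervous markers miR-124 passed as lower in thalamus (-0.52), and among the other lists miR-223 of leukocytes was higher (0.71) and miR-194 of gut epithelium lower (-0.54). Their part was not tested. miR-375 was near the floor in thalamus, at 11.9, 7.20 and 3.79 with detection on 1 array, and in none of the other 4 regions was it detected (difference 0.05 ± 0.28, limma's adjusted p = 1). With a floor of 0.25 times the main one the difference was 1.34 and passed the test (adjusted p = 0.00599), on signals that were detected on 1 of the 15 arrays.

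Spinal cord lay below thalamus, hippocampus and cerebral cortex. miR-7a had means of 110.1 ± 5.85 (SD, n = 3) in cervical cord, 90.6 ± 26.4 in pectoral cord and 85.0 ± 64.7 in lumbar cord. In lumbar cord rat 5 stood at 160 against 48.8 and 46.6, and this was the widest spread of miR-7a among organs detected throughout. Its mean lay above that of cerebellum through this array, as the other 2 lay below every cerebellum array. miR-7b stood apart on the same array, at 32.2 against 13.2 and 11.2, and that array is 1 of the 8 with 2 rat numbers. Marker sums in lumbar cord were uneven as well, from 2213 to 9530 for nervous tissue, 53.7 to 847 for red cells and 218 to 681 for muscle. The part of this tissue content was not tested. Ischial nerve had miR-7a signals of 8.53 to 11.0, at or near the floor.

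The other arms differed between the loci of miR-7a. miR-7a-2*, of the locus on chromosome 1, was detected on 10 arrays of the perfused rats, all in pituitary gland and forebrain. Its signals were 173, 198 and 194 in pituitary gland, 35.1, 31.0 and 26.4 in thalamus, and 17.8, 10.6 and 17.2 in cerebral cortex, and in hippocampus it was detected on 1 array. Pituitary gland exceeded the other organs by 4.07 ± 0.06 log2 units (SE, limma's adjusted p = 7.20e-89), at least 12.4-fold, and thalamus exceeded the 4 other brain regions by 1.29 ± 0.07 (2.11e-34), at least 2.42-fold. miR-7a-1*, of the locus on chromosome 17, was detected on 26 arrays and had its highest mean in cerebellum, at 40.0 ± 4.42 (SD, n = 3). In pituitary gland it had 13.3, 18.0 and 13.1, which did not differ from the other organs beyond error (difference -0.05 ± 0.11, limma's adjusted p = 0.685). The 17 organs with at least 1 detection of miR-7a-1* include cervical and mesenteric lymph nodes, thymus, rectum, spleen and colon, with means from 20.5 to 33.9. miR-375* was detected on 0 of the 180 arrays.

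**Figure D2:**
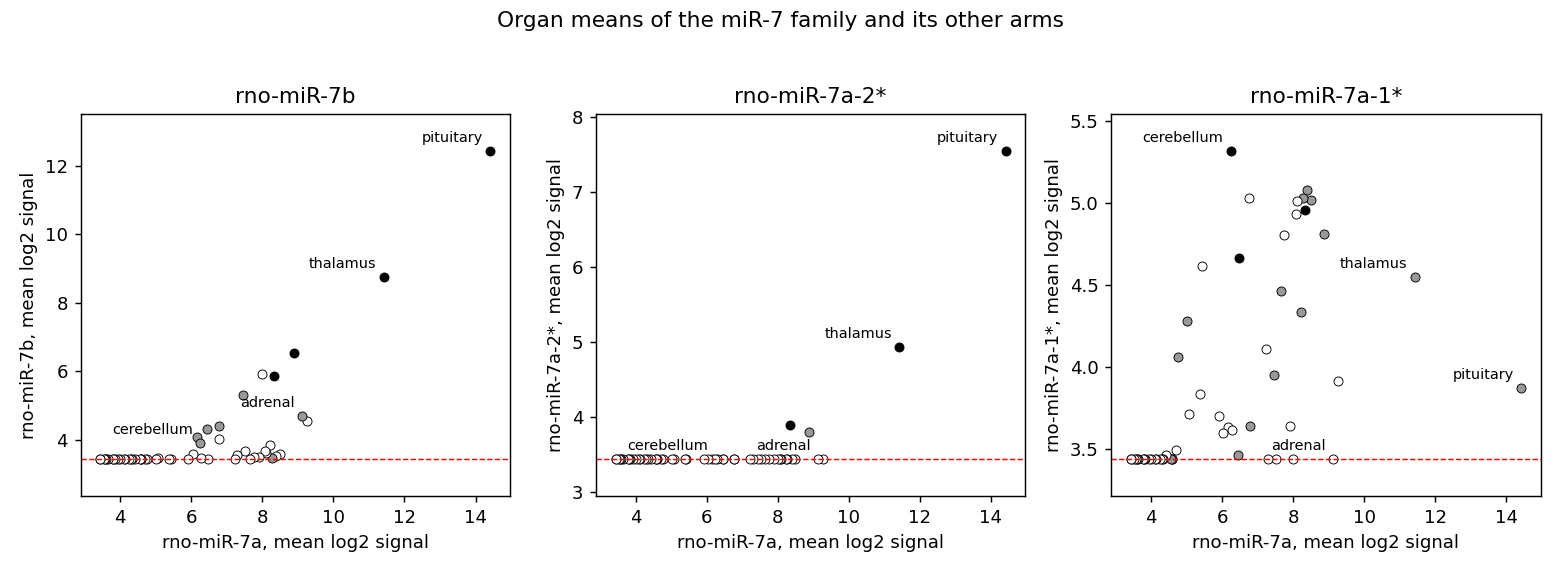
Mean log2 signal over 3 rats of rno-miR-7b, rno-miR-7a-2* and rno-miR-7a-1* (vertical axes) against rno-miR-7a (horizontal axis), with 1 point per organ, filled where detected on all 3 arrays, grey on 1 or 2, open on none, and the floor dashed. miR-7b and miR-7a-2* are filled in pituitary gland, thalamus and cerebral cortex, and miR-7b in hippocampus also, while miR-7a-1* has its highest mean in cerebellum.

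Over the 55 organ means the log2 levels of miR-7a and miR-7b had a Pearson correlation of 0.73, which was 0.63 without pituitary gland. With miR-7a-2* the correlation was 0.61 for miR-7a and 0.91 for miR-7b, and without pituitary gland it was 0.45 and 0.83. With miR-7a-1* it was 0.53 for miR-7a and 0.62 without pituitary gland, so that the order of the 2 arms turned. The points share arrays and scaling, and many are at the floor. Between pituitary gland and thalamus miR-7a differed 7.97-fold and miR-7b 13.0-fold, and these steps differed by 0.70 log2 units. The log2 level of miR-7a minus miR-7b, compared between organs only, was 2.75, 2.75 and 2.52 in thalamus and 2.06, 1.94 and 1.92 in pituitary gland. A two-sided exact permutation test gave p = 0.1, or 0.2 adjusted over the 6 pairs of the 4 organs that detected both throughout. As 0.1 is the smallest that 3 against 3 allows, this test could not pass the threshold and decides nothing here. By probe sequence the step was 3.12 and 2.95 log2 units for miR-7a, and 3.80, 3.72 and 3.67 for 3 probes of miR-7b. The remaining probe of miR-7b had a thalamus mean of 8.92, below the floor, and gives no step. The miRNAs differ by 1 base, and the share of one in the signal of the other was not tested.

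Adrenal gland, whose cortex makes steroids and whose medulla releases catecholamines, ranked 4 of 55 for miR-7a. Its signals were 595, 449 and 652, with a mean of 565 ± 105 (SD, n = 3). Testicle ranked 3 with 667, 556 and 633, and the 2 organs overlapped, as adrenal gland and hippocampus did. Adrenal gland ranked 3 under each of the 4 other scalings and 7 with normexp background correction, so that the order of the 2 organs depends on the processing. The difference of adrenal gland from the other 54 organs was 3.01 ± 0.17 log2 units (SE, limma's adjusted p = 5.67e-33), at least 8.04-fold, where 22.0% of the 345 miRNAs passed as higher and 12 had a larger difference. All adrenal arrays lay above all arrays of 50 of the other 54 organs. Epithelial markers (-4.13 to -1.87, 6 of 6), leukocyte markers (-1.69 to -0.78, 3 of 3), nervous markers (-1.76 to -1.55, 3 of 3) and muscle markers (-4.51 to -1.21, 3 of 3) passed as lower in adrenal gland, and their part was not tested.

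miR-7b in adrenal gland had 35.6, 22.5 and 22.2 and was detected on 2 of 3 arrays. Its difference of 0.70 ± 0.11 passed the test (limma's adjusted p = 6.44e-09) but amounts to at least 1.29-fold only, and with a floor 4 times as high it was a call in the other direction (-0.23, adjusted p = 4.92e-05). miR-375 in adrenal gland had 139, 101 and 147, which ranks 18 of 55. Its difference of 1.40 ± 0.26 (limma's adjusted p = 8.61e-07) is set against a mean in which 31 organs did not detect it. With normexp it was -0.20 (adjusted p = 0.356), with the higher floor 0.19 (0.369), and on single slides adrenal gland lay 0.40 to 1.09 below the other organs. Direct comparison put pituitary gland above adrenal gland 39.1-fold for miR-7a, 213-fold for miR-7b and 44.3-fold for miR-375, with log2 differences of 5.29 ± 0.24, 7.73 ± 0.15 and 5.47 ± 0.36 (limma's adjusted p = 1.58e-41, 1.24e-77 and 5.70e-28). In that comparison 36.5% of the 345 miRNAs were called higher in pituitary gland. All 6 epithelial markers were among them, with differences from 5.35 to 8.68, and no adrenal array detected any of them. The acinar markers miR-216a (1.00) and miR-217 (0.28) and the nervous marker miR-9* (0.64) passed as higher in pituitary gland. The leukocyte markers miR-150 (-1.35) and miR-223 (-0.96) and miR-451 of red cells (-2.04) passed as lower in pituitary gland. The part of these cell types was not tested.

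**Figure D3:**
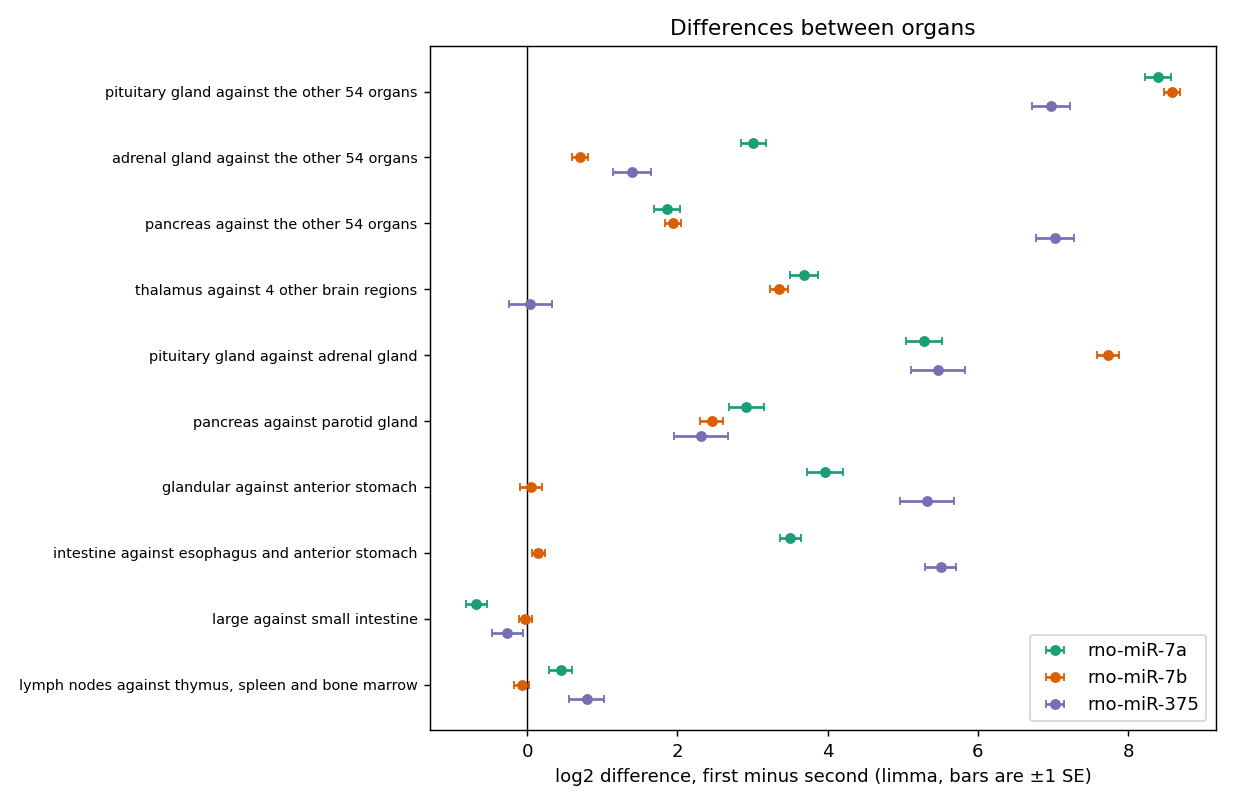
Log2 difference (horizontal axis, first minus second) of the 3 members in 10 comparisons between organs, as points with bars of 1 SE from limma. The comparison of pituitary gland holds all 3 members between 6.97 and 8.58, and that of thalamus holds miR-375 at 0.05.

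Pancreas, which joins digestive acini with scattered endocrine islets, had the highest mean of miR-375. The signals were 5564, 6391 and 5664, with a mean of 5873 ± 451 (SD, n = 3), and they overlapped those of pituitary gland. Against the other 54 organs the log2 difference was 7.03 ± 0.26 (SE, limma's adjusted p = 1.55e-50), at least 117-fold, where 41.2% of the 345 miRNAs were called higher and 16 had a larger difference. Acinar miRNAs marked the same arrays, with miR-216a at 5773 ± 271 (SD, n = 3) and miR-217 at 3311 ± 203. The 6 epithelial markers also passed as higher in pancreas, by 1.93 to 4.34 log2 units. Of the leukocyte markers miR-223 was higher (2.21). miR-142-3p (-1.08) and miR-150 (-2.23) passed as lower, though no pancreas array detected either. These marker differences are those of the main scale only. The part of these cell types in the miR-375 level was not tested.

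The pancreas arrays were dim before scaling, with a 75th percentile of 68.0 to 120.7 against 1674 to 3233 in pituitary gland, and were multiplied by 17.5 to 31.1. Unscaled, the mean of miR-375 in pancreas was 257 ± 69.0 (SD, n = 3), which ranks 14 of 55, while pituitary gland had 6847 ± 1800 and ranked 1. The log2 difference of pancreas minus pituitary gland was 0.06 on the main scale, -0.99 in the authors' table, -1.29 after quantile normalization, -1.52 with the percentile over all miRNAs and -4.73 without scaling. Pancreas still stood above the average of the other 54 organs for miR-375 under each alternative run, by 2.84 to 8.12 log2 units.

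**Figure D4:**
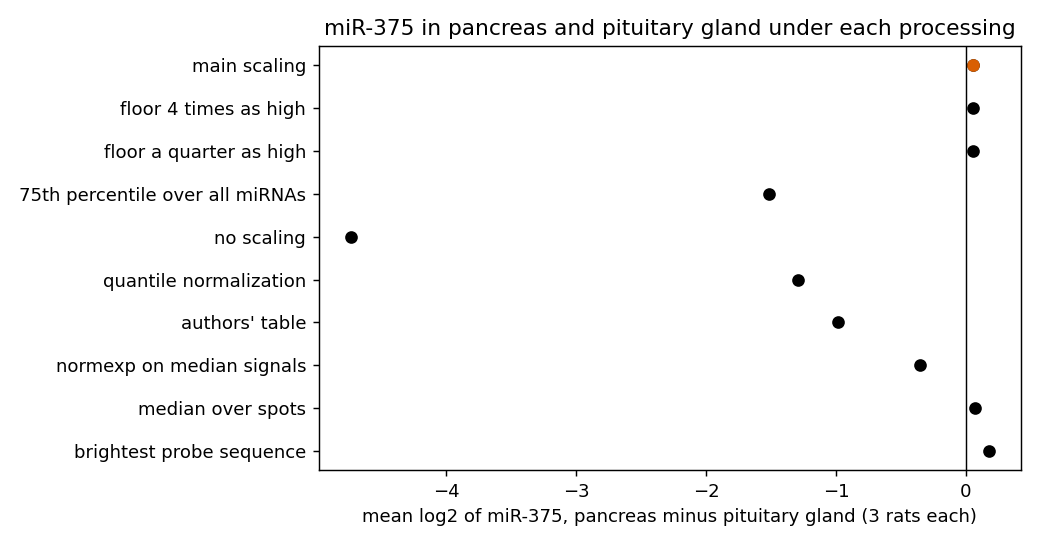
Difference of the mean log2 signal of miR-375, pancreas minus pituitary gland (horizontal axis, 3 rats each), under the main scaling (orange) and 9 other ways of processing (black). The value lies near 0 where the main scaling is kept, apart from the normexp correction at -0.36, and reaches -4.73 without scaling.

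miR-7a in pancreas had 250, 344 and 194 and was detected on 2 of 3 arrays. It was above the average of the other organs by 1.86 ± 0.17 log2 units (SE, limma's adjusted p = 6.22e-19), but the sign turned with every other scaling, from -0.15 in the authors' table (adjusted p = 0.475) to -2.24 unscaled (1.93e-12). Signals of miR-7b were 59.8, 54.6 and 69.1, none of them well above background, while the lowest signals detected on these arrays were between 115 and 273 after scaling. The data therefore give no fold for miR-7b in pancreas.

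Salivary glands allowed a comparison with exocrine glands that hold no islets. Parotid gland had miR-375 signals of 1051, 1221 and 1271, rank 3 of 55, with no overlap to either neighbour in the order on the main scale. Rank 3 went to seminal vesicle with the percentile over all miRNAs, to mandibular gland after quantile normalization and to rectum without scaling, where parotid gland ranked 8. Mandibular gland had 862 ± 105 (SD, n = 3) and sublingual gland 778 ± 94.3. Pancreas exceeded parotid gland 4.98-fold for miR-375, a log2 difference of 2.32 ± 0.36 (SE, limma's adjusted p = 9.77e-09), in a comparison where 40.0% of the 345 miRNAs were called higher in pancreas. This call was lost with the percentile over all miRNAs (0.15, adjusted p = 1) and in the authors' table (0.60, adjusted p = 0.189). Without scaling the difference was -0.41 (adjusted p = 0.751). For miR-7a the same comparison gave 2.92 ± 0.24 (adjusted p = 1.38e-21), at least 6.51-fold since no parotid array detected it, and 0.11 without scaling (adjusted p = 1). Epithelial markers did not rise with this comparison, as miR-200b (-1.81), miR-429 (-1.50) and miR-200a (-1.45) passed as lower in pancreas and the other 3 of 6 lay between -0.68 and -0.55 without passing. The acinar markers miR-216a (9.06) and miR-217 (8.25) were higher in pancreas. Of the gut epithelial markers miR-192 (1.08) and the older version of miR-215 (0.64) passed as higher, though no pancreas array detected them. Of the leukocyte markers miR-223 was higher (1.88) and miR-150 lower (-0.97), and the 3 muscle markers were lower (-5.59 to -2.36). No pancreas array detected miR-150 or any of the muscle markers. Parotid and thyroid arrays also held muscle miRNAs unevenly, whose sum ran from 42.4 to 11632 in parotid gland and from 44.0 to 11291 in thyroid, and their part in these levels was not tested.

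Other secretory organs followed for miR-375. Seminal vesicle had 956, 829 and 768, thyroid 484, 513 and 416, and Harderian gland, a lipid-secreting gland of the orbit, 516, 430 and 339. Prostate other than the ventral lobe had 217, 588 and 808, the widest spread of miR-375 among organs detected throughout (SD 0.99 log2 units), and its epithelial markers summed to between 15073 and 44672. In Harderian gland the muscle markers ran from 87.2 to 3247. The part of either in these levels was not tested. Neighbours in the order, which is that of the main scale, mostly overlapped. From mandibular gland, rank 4, to Harderian gland, rank 15, no organ was separated from the next by its 3 values, and the next gap without overlap came between Harderian gland and cecum. Trachea at 163, 75.5 and 131 and lung at 120, 89.1 and 123 formed the lower end of the organs that detected miR-375 throughout. For miR-7a 5 of the 54 neighbouring pairs did not overlap, which were pituitary gland over thalamus, thalamus over testicle, cecum over cervical spinal cord, epididymis over mandibular gland and ischial nerve over aorta.

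Along the digestive tract both miR-7a and miR-375 changed at the border between the squamous and the glandular lining of the stomach. Glandular stomach, which holds acid, enzyme and hormone cells, had miR-375 signals of 514, 544 and 294, whereas anterior stomach, which is squamous in the rat, did not detect it on any array. miR-7a had 242, 277 and 204 in glandular stomach and 13.3, 14.7 and 18.5 in anterior stomach. The log2 difference was 5.33 ± 0.36 (SE) for miR-375 (limma's adjusted p = 1.13e-26), at least 40.1-fold, and 3.96 ± 0.24 for miR-7a (2.30e-30), 15.6-fold with 2 of 3 anterior stomach arrays detected. Of the 345 miRNAs 29.0% were called higher in glandular stomach, with 2 differences larger than that of miR-375 and 10 larger than that of miR-7a. miR-7b was not detected in either. Epithelial miRNAs moved with this comparison, as the 6 markers summed to between 18064 and 26775 in glandular and between 1018 and 1234 in anterior stomach, and miR-192 of gut epithelium was at 3154 ± 895 (SD, n = 3) in glandular stomach. The sum of the 3 muscle markers (miR-1, miR-133a and miR-133b) moved the other way. It was between 961 and 1143 in anterior and between 15.0 and 28.3 in glandular stomach. Of these markers miR-133b (-5.76, limma's adjusted p = 4.41e-07) and miR-1 (-3.16, 0.0102) passed as lower in glandular stomach. The difference of miR-133a did not pass (limma's adjusted p = 0.0816). Of the leukocyte markers miR-142-3p passed as higher in glandular stomach (0.94, limma's adjusted p = 0.0482) and miR-150 as lower (-1.02, 0.00364). The part of epithelial, muscle and leukocyte content in the difference was not tested.

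Every segment of the intestine detected both miRNAs on all 3 arrays. miR-375 had means of 492 ± 80.1 (SD, n = 3) in duodenum, 628 ± 121 in jejunum, 618 ± 89.0 in ileum, 267 ± 101 in cecum, 799 ± 106 in colon and 550 ± 144 in rectum. miR-7a had means of 271 ± 16.3 in duodenum, 275 ± 0.52 in jejunum, 218 ± 32.8 in ileum, 150 ± 13.5 in cecum, 301 ± 50.0 in colon and 89.7 ± 18.8 in rectum. Esophagus had miR-7a signals of 18.2, 16.4 and 27.7 and no detection of miR-375. Intestine exceeded esophagus and anterior stomach by 5.50 ± 0.21 log2 units (SE) for miR-375 (limma's adjusted p = 1.03e-48), at least 39.2-fold, and by 3.50 ± 0.14 for miR-7a (4.38e-47). This is 11.3-fold on the measured means, with miR-7a detected on 3 of the 6 arrays of esophagus and anterior stomach. In this comparison 38.8% of the 345 miRNAs were called higher in intestine, and 4 and 15 differences were larger than those of miR-375 and miR-7a. The intestinal samples were scraped mucosa, and no such preparation is given for esophagus and anterior stomach. The 6 epithelial markers summed to between 8688 and 37681 in intestine and between 1018 and 5088 in the squamous organs, and the 3 muscle markers to between 8.07 and 488 against 961 to 29419. The 4 markers of gut epithelium summed to between 5090 and 186392 in intestine and between 19.2 and 379 in the squamous organs. Their differences ran from 7.96 for miR-215 to 8.74 for miR-194, above that of miR-375. Other single markers differed by 4.44 for miR-200a, 4.27 for miR-141 and 4.11 for miR-142-3p of leukocytes, and by -5.88 for miR-133b and -5.66 for miR-1. Preparation and organ cannot be told apart here, and the part of epithelial, gut epithelial, leukocyte and muscle content was not tested.

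Large intestine was lower than small intestine for miR-7a by 0.68 ± 0.14 log2 units (SE, limma's adjusted p = 1.45e-05), and 34.5% of the 345 miRNAs were called lower. Within the 3 slides that hold both it was -0.79 to -0.23. Cecum and rectum lay below every small intestinal array while colon, with 316, 342 and 245, overlapped them. The call was lost in the authors' table (-0.12, adjusted p = 0.879), after quantile normalization (-0.21, 0.380) and with the percentile over all miRNAs (-0.08, adjusted p = 1), and without scaling the sign turned (0.66, 0.0112). For miR-375 the difference was -0.26 ± 0.21 (adjusted p = 0.421). Its sign turned under all 4 other scalings, as a call without scaling (1.07, adjusted p = 0.000172), whereas normexp gave a call in the other direction (-0.43, adjusted p = 0.0118). The 4 markers of gut epithelium summed to between 54865 and 186392 in small and between 5090 and 26481 in large intestine. Other markers that passed as lower in large intestine were miR-141 (-0.89, adjusted p = 0.000397) and the older version of miR-200c (-0.96, adjusted p = 0.000252) of epithelium, and miR-142-3p (-0.75, adjusted p = 0.00452) of leukocytes. The part of these cell types was not tested.

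**Figure D5:**
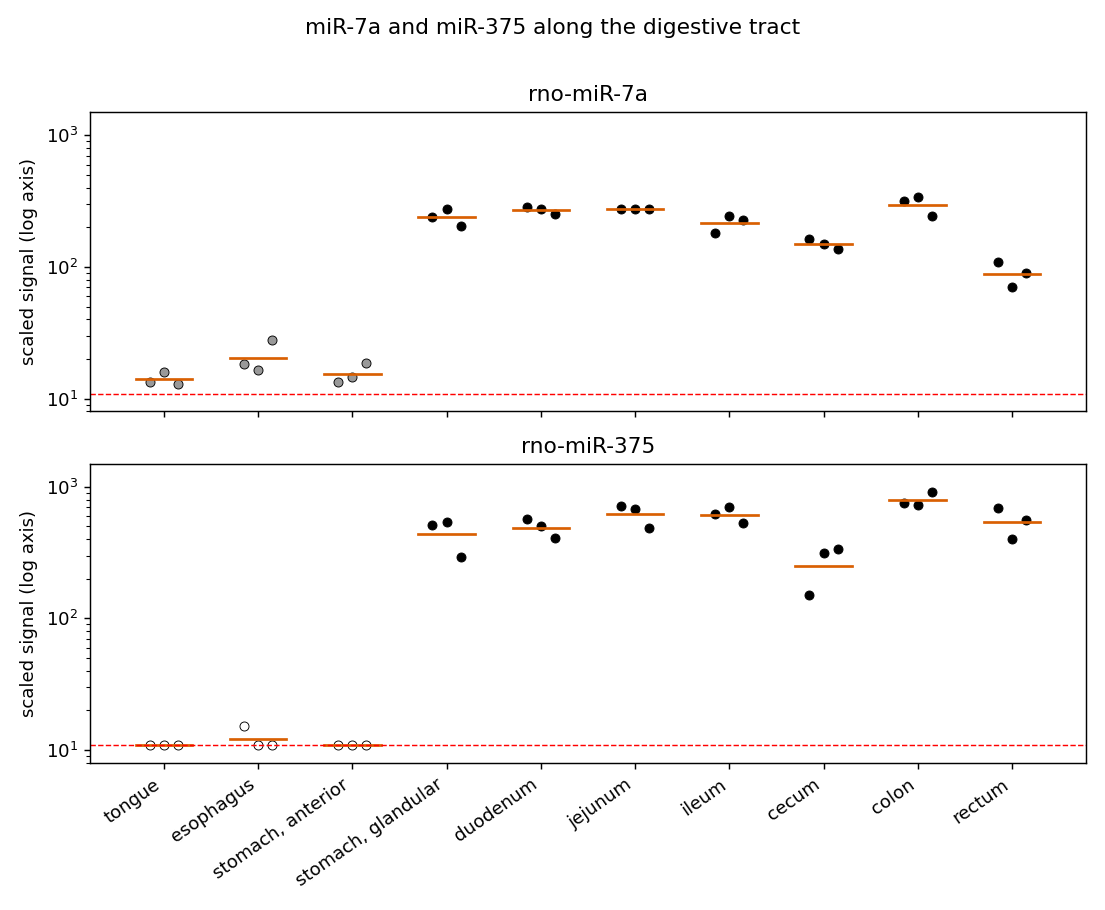
Scaled signal (log axis) of rno-miR-7a and rno-miR-375 along the digestive tract, with 1 point per rat, the geometric mean as an orange line and the floor of 10.8 dashed. Points are filled, grey or open for organs detected on 3, on 1 or 2, or on 0 arrays, and both miRNAs rise from anterior to glandular stomach.

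Lymphoid organs held miR-7a on every array, while miR-7b and miR-375 were detected on 1 array each. Thymus had 397, 381 and 313, cervical lymph node 262, 401 and 366, mesenteric lymph node 275, 326 and 332, spleen 202 ± 17.8 (SD, n = 3) and bone marrow 189 ± 62.0. Lymph nodes exceeded thymus, spleen and bone marrow by 0.45 ± 0.15 log2 units (SE, limma's adjusted p = 0.0139), where 10.7% of the 345 miRNAs were called higher in lymph nodes. Without rat 5 this was 0.33 (adjusted p = 0.143) and without rat 6 0.42 (0.0762). The call was also lost with normexp (0.15, adjusted p = 0.506) and with the brightest probe sequence (0.27, adjusted p = 0.186), and on the 2 slides that hold both kinds of organ, with 1 array of the second kind each, it was -0.57 and -0.23. Thymus lay above mesenteric lymph node on average and overlapped it. Markers of blood cells moved further than miR-7a in this comparison, with miR-451 (-6.19), miR-144 (-3.90) and miR-223 (-1.26) lower and miR-150 (1.96) higher in lymph nodes, while miR-142-3p did not pass (-0.04, adjusted p = 1). Their part was not tested.

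Cervical lymph node of rat 4 stood apart for miR-375, at 292 against -2.99 and -1.56 in rats 5 and 6, where negative values are signals below background. On the same array miR-200a was at 1304 and miR-200b at 1263, against 0.65 and -0.02 in rat 5 and 1.03 and 0.13 in rat 6. All 6 epithelial miRNAs were detected on it, with a sum of 5146, whereas 1 was detected on each other lymph node array, with sums from 39.3 to 56.4. Leukocyte miRNAs were detected on all 6 arrays, with miR-142-3p at 14498 on this array and between 14905 and 25537 on the others. The part of epithelial content in the miR-375 signal was not tested. The difference of lymph nodes from the other lymphoid organs for miR-375, 0.79 ± 0.23 (limma's adjusted p = 0.00348), rests on this array, since it was 0 without it (adjusted p = 1).

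Perfusion was compared to ask whether blood left in an organ shifts the measurement. Of the red-cell miRNAs, miR-451 was between 9.87 and 167 in perfused and between 132 and 800 in not perfused liver, kidney, heart atrium and septum, with no overlap within an organ. In lung the perfused rats ranged from 17.5 to 1080 and overlapped the others, at 405 to 559. Perfused minus not perfused, miR-451 had log2 differences of -3.64 for kidney, -3.38 for septum, -3.30 for heart atrium, -1.48 for liver and -1.33 for lung, of which none passed limma's test (adjusted p from 0.149 to 0.944). No tested difference of a member passed either. In lung, the only one of the 5 organs that detected miR-375 throughout, the signals were 111 ± 18.7 (SD, n = 3) with and 120 ± 30.0 without perfusion. miR-7a had 23.9 ± 3.61 and 26.4 ± 3.45 in lung, 78.9 ± 14.1 and 70.7 ± 2.28 in liver, 24.3 ± 3.21 and 22.9 ± 2.11 in kidney, 12.6 ± 1.86 and 11.7 ± 1.96 in heart atrium, and 11.9 ± 1.58 and 10.5 ± 1.25 in heart interventricular septum. Log2 differences of miR-7a, perfused minus not perfused, ran from -0.15 to 0.14 with an SE of 0.14, and that of miR-375 in lung was -0.10 ± 0.17 (limma's adjusted p = 1 in each). In kidney miR-375 differed by 0.34 ± 0.17 (adjusted p = 1, unadjusted p = 0.0582), the highest signed difference of the 191 miRNAs there, at signals of 8.51 to 20.5 with and 6.58 to 11.2 without perfusion, of which 1 array of 6 was detected. In these comparisons limma called 0 of 191 miRNAs (0%) in any of the 5 organs, and an unadjusted p under 0.05 was reached by 11 miRNAs of liver, 12 of lung, 4 each of kidney and heart atrium, and 3 of the septum. miR-7b was not detected on any of these 30 arrays.

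The miRNAs whose organ means were most like those of each member were sought among 284 that were detected on all arrays of at least 3 organs, with the members themselves left out. For miR-375 these were miR-200c (Pearson r = 0.87 over 55 organs), miR-141 (0.83), an older array version of miR-200c (0.80), miR-200a (0.78) and miR-429 (0.77), all of the epithelial miR-200 family. Without pituitary gland the r stayed between 0.78 and 0.86. For miR-7b they were miR-7a-2* (0.91), the older version of miR-487b (0.85), miR-409-5p (0.84), its older version (0.83) and miR-551b (0.82), and in each of them pituitary gland ranked first or second. A choice by likeness to a profile led by pituitary gland favours such miRNAs. miR-7b was not detected in 44 organs and miR-7a-2* not in 51, and their Spearman correlation was 0.48. For miR-7a the likeness was weaker, and below its 0.73 with miR-7b, with miR-29b (0.67), miR-301a (0.65), miR-29a (0.63), miR-148b-3p (0.62) and miR-98 (0.62). Between the members r was 0.36 for miR-7a with miR-375 and 0.22 for miR-7b with miR-375, which became -0.06 without pituitary gland.

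Each member was read by several probe sequences. The 2 probes of miR-7a (r = 0.98 over organ means) both placed pituitary gland first and thalamus second, and the 2 probes of miR-375 (r = 0.96) both placed pancreas first and pituitary gland second on the main scale, where the brighter gave 10295 and 10190. For miR-375 itself pituitary gland came first under the 4 other scalings and with normexp. Of the 4 probes of miR-7b 3 placed pituitary gland first and thalamus second, with means of 2154, 8900 and 11183 in pituitary gland. The remaining probe was dim, at 88.3 in pituitary gland and 49.6 in pancreas, and the lowest correlation among the 4 was 0.65.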

How the data were processed

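Signals were measured on 180 1-color arrays, 3 for each of 55 organs of perfused rats and 15 of rats without perfusion, on 23 slides scanned on 3 days. The authors deposited scanner output (Agilent Feature Extraction 10.7.3 per the submitters' processing notes) that holds a background-subtracted signal intensity per spot, and a table of normalized intensity per miRNA, which was scaled by the authors to a 75th percentile and used here as an alternative. Samples were grouped by organ and condition from their labels, and 0 columns were left unmatched.

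Outlier spots were left out (1.63% to 6.42% of an array), and the others were averaged per probe sequence and then per miRNA. For the scaling, the 75th percentile of the 37 miRNAs with detection on each of the 180 arrays was set to 2118, and log2 was taken of values raised to at least 10.8 (the floor). limma 3.58.1 in R 4.3.3 was fitted, with 1 term per organ, to the 345 miRNAs (191 for perfusion) that some organ detected in each of its 3 rats, two-sided, with Benjamini-Hochberg adjustment and a threshold of 0.05. SE are those of limma, which pool the spread over all organs of the fit, also those at the floor. The rats were separate animals. Arrays of 1 rat share an animal, and their residuals had a mean correlation of 0.05, against -0.02 between rats. Fits were tested on simulated data.

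The members, the marker lists and the comparisons were chosen with earlier results of these data known. Named miRNAs were the members, their other arms, the markers and, for each member, the 5 with the highest correlation of organ means. Of 23 marker names 22 were found. The name miR-216b was not matched, and the array's entry with the arm added, miR-216b-5p, was not used. The alternatives changed scaling, floor, background, summary, filter, fit, block and arrays. The planned normexp correction on mean signals was run on median signals, since no column of mean signals was found.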

Additional observations from a re-analysis of the deposited data

How the results depend on the processing

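No alternative ended or turned the calls of pituitary gland against the other organs or against adrenal gland, of thalamus for miR-7a and miR-7b, of the stomach and intestine comparisons against squamous lining, of adrenal gland for miR-7a or of pancreas against the other organs for miR-375. Their sizes did move, so that the folds given are those of the main processing. For instance, the log2 difference ran from 1.55 to 3.90 for miR-7a in adrenal gland. It ran from 2.73 to 7.33 for miR-375 in glandular stomach and from 1.34 to 3.72 for miR-7a in intestine. Of 663 values of members 608 stayed the same, which means that they kept their direction and side of the threshold. Pancreas minus pituitary gland for miR-375 has no test and counted as the same within the combined SD of both organs. Members detected on neither side of a comparison, and miR-375 in the perfusion comparison of kidney, were left out of this count. With the percentile over all miRNAs, without scaling, after quantile normalization and in the authors' table, pancreas against the other organs gave -0.80, -2.24, -0.32 and -0.15 for miR-7a and -0.32, -0.59, -0.37 and -0.36 for miR-7b. In the same order, large against small intestine gave -0.079, 0.66, -0.21 and -0.12 for miR-7a and 0.33, 1.07, 0.14 and 0.29 for miR-375, and lymph nodes gave 0.13, 0.11, 0.17 and 0.19 for miR-7b (main value -0.07). Pancreas against parotid gland gave 0.15 for miR-375 with the percentile over all miRNAs, 0.60 in the authors' table and -0.41 without scaling, which gave 0.11 for miR-7a. Pancreas minus pituitary gland for miR-375 was -1.52, -4.73, -1.29 and -0.99 under these scalings and -0.36 with normexp. In lung the percentile over all miRNAs gave 0.069 for miR-375 and 0.021 for miR-7a, perfused minus not perfused. The median difference over all miRNAs moved most in pancreas, from -0.10 to -0.84 without scaling.

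A floor 4 times as high gave 0.19 for miR-375 and -0.23 for miR-7b in adrenal gland, and a floor of 0.25 times the main one gave 1.34 for miR-375 in thalamus and 0.17 for miR-7b in lymph nodes. The planned normexp on mean signals was not run for want of that column. On median signals (chosen after seeing the data) it gave -0.20 for miR-375 and -0.60 for miR-7b in adrenal gland, -0.15 for miR-375 and 0.15 for miR-7a in lymph nodes, -0.43 for miR-375 in large intestine, and -0.89 and -0.0069 for miR-7a in kidney and heart atrium. The brightest probe sequence gave 0.27 for miR-7a and 0.32 for miR-7b in lymph nodes. Fitted on these organs alone, miR-375 in lymph nodes had 0.79 (adjusted p = 0.488), and it was 0 without cervical lymph node of rat 4 (chosen after seeing the data). Calls in the other direction were those of pancreas for miR-7a with the percentile over all miRNAs and without scaling, of pancreas for miR-7b under all 4 scalings, of miR-7a in large intestine without scaling and of miR-7b in adrenal gland with the higher floor. The main value of miR-7b in pancreas was a call at 1.95 (limma's adjusted p = 1.87e-34), on arrays that did not detect it. Calls were gained by miR-375 in large intestine without scaling and with normexp, by miR-375 in thalamus with the lower floor and by miR-7b in lymph nodes in the authors' table (adjusted p = 0.0131), and that of miR-7a in lymph nodes was lost with normexp and the brightest probe. The cause of these changes was not tested.

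Leaving out 1 rat gave 0.33 to 0.59 for miR-7a and 0 to 1.19 for miR-375 in lymph nodes. For perfusion it gave -0.020 to 0.17 in kidney, -0.068 to 0.13 in heart atrium and -0.0043 to 0.16 in septum for miR-7a, and -0.31 to 0.064 in lung for miR-375. Counts of calls under this ranged from 0 to 4 in liver, 0 to 2 in kidney and lung, and 0 to 1 in atrium and septum. Slide as a random block moved no call of a member, and within slides thalamus was higher by 3.27 to 4.74 for miR-7a and 3.12 to 4.32 for miR-7b, glandular stomach by 3.46 to 4.24 for miR-7a and 4.76 to 5.65 for miR-375, intestine by 3.36 to 4.00 and 5.10 to 5.69, and pancreas by 5.29 to 5.75 for miR-375. No slide holds both pituitary and adrenal gland, or both pancreas and parotid gland. The replicate block moved no call of a member. Its one changed count was 1 call in lung, against 0.

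Counts of calls were 272, 252, 303, 127, 179, 193, 191 and 124 of 345 for pituitary gland, adrenal gland, pancreas, thalamus, pituitary against adrenal gland, pancreas against parotid gland, intestine against squamous lining, and lymph nodes. Testing the miRNAs detected on at least 50% of the arrays, which are fewer, gave 116, 102, 126, 59, 95, 100, 127 and 81. With normexp the counts were 135, 133, 37, 90, 312 and 118 for pituitary gland, adrenal gland, thalamus, pituitary against adrenal gland, pancreas against parotid gland and intestine, and 330 against 139 for large intestine. Without scaling they were 68 for thalamus and 128 for pancreas against parotid gland, which had 314 with no filter. For perfusion, where the main count was 0, quantile normalization gave 3 in liver and 4 in kidney, the higher floor 5 in liver, no filter 3 in liver and 1 in kidney, and the authors' values 2 in lung and 1 in septum. The fit of 180 arrays gave 2 in liver and 1 in kidney, atrium and septum. In kidney the percentile over all miRNAs, no scaling, the filter at 50% of the arrays and the fit of these organs alone gave 1 each, as did the brightest probe and the filter at 50% in lung.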
